A study of Mus musculus with 2 samples.

Results

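The 37 genes described here encode the enzymes, transporters and regulators that take glucose into the cell, convert it to pyruvate and then to lactate or acetyl-CoA, together with the oxygen-sensing pair of HIF-1α and its degradation machinery. They were chosen by symbol from a list of glycolysis, pyruvate use and hypoxia genes, and they are 37 of the 55536 annotated genes in the larger deposited gene table. The rule names symbols and sets no threshold on a measured value. All 37 symbols were found. The symbol Aldoa stood for 2 gene identifiers, and the second was at 0 counts in both libraries, so Aldoa below is the first.

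The samples were inflammation-experienced regulatory T cells, which are Foxp3-expressing CD4 T cells that restrain immune responses. They came from a male adult mouse, 6 months old, of the strain Foxp3CreERT2 x Rosa26YFP, in which a tamoxifen-inducible Cre is expressed with Foxp3 and a yellow fluorescent reporter marks cells in which Cre has acted. The labels describe primary cells originated from bone marrow hematopoietic cell, and they do not state what the inflammation was. Both libraries were polyA plus RNA-seq of the same biological replicate, named technical replicate 1 and technical replicate 2, so the data hold 1 group, no control and no contrast of conditions. Every SD below is over these 2 technical libraries and measures library preparation and sequencing, not the spread between mice.

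Estimated counts over all genes were 15386113 in technical replicate 1 and 13604480 in technical replicate 2, and the members took 0.565% and 0.548% of them. All 5 of 5 T cell markers and all 5 of 5 regulatory T cell markers were detected, with Foxp3 at 22.1 and 17.9 TPM, a level scaled for transcript length and library size. No marker of B cells, of monocytes and macrophages, of neutrophils or of natural killer cells was detected (0 of 3, 0 of 3, 0 of 2 and 0 of 2). Both CD8 T cell markers were detected at 6.83 TPM on median, as were 2 of 3 erythroid markers, whose median was 1.91 TPM. The part these cells have in the levels below was not tested.

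Glycolysis splits glucose into pyruvate in the cytosol. Pyruvate is then reduced to lactate by lactate dehydrogenase, or it enters mitochondria through the mitochondrial pyruvate carrier and is oxidised by the pyruvate dehydrogenase complex, which pyruvate dehydrogenase kinases switch off by phosphorylation. HIF-1α, the oxygen-regulated subunit of hypoxia-inducible factor 1, activates many glycolytic genes. With oxygen present, prolyl hydroxylases mark it for the ubiquitin ligase that contains VHL. In T cells activation is known to raise glycolysis, and in regulatory T cells Foxp3 is known to restrain it. HIF-1α is also known in mice to favour T helper 17 cells over regulatory T cells.

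Detection was defined as at least 1 TPM in both libraries. By this rule 36 of the 37 members were detected, where the background was 24.3% of all annotated genes and 46.7% of the protein-coding genes. The exception was Hk3, a hexokinase best known from myeloid cells, which was at 0.42 and 0.32 TPM from 8 and 6 counts. The median member was Pgam1 at 42.9 TPM, compared with 18.3 TPM for the median detected protein-coding gene, and 22 members lay above that value. The members did not form a group of uniformly abundant transcripts, because 11 were at 100 TPM or more in both libraries and 11 were under 10 TPM in both.

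**Figure D1:**
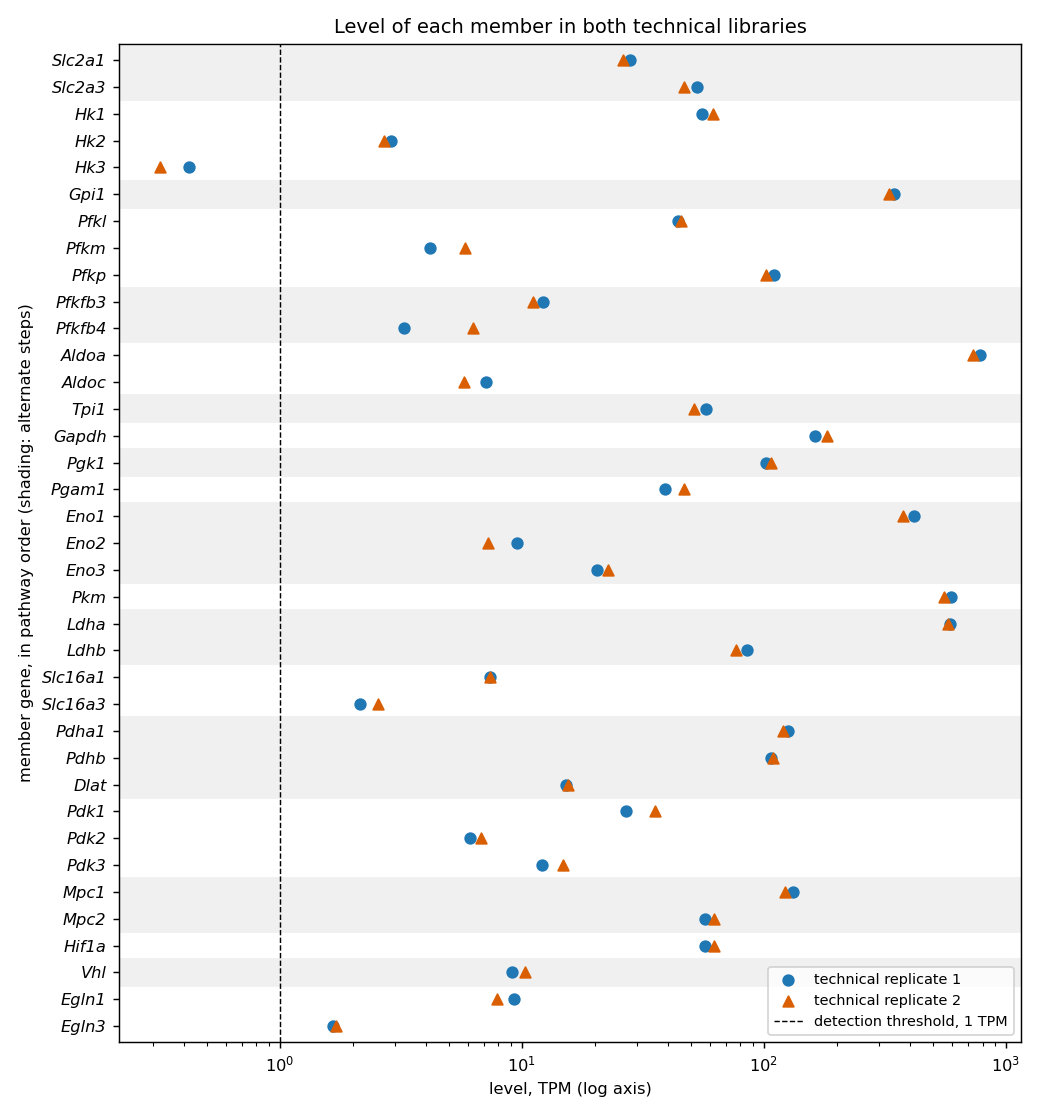
Level of each of the 37 members in TPM (log axis) in technical replicate 1 (circles) and technical replicate 2 (triangles), in pathway order with alternate steps shaded and the detection threshold of 1 TPM dashed. Hk3 alone lies below the threshold, and Aldoa, Ldha and Pkm lie farthest to the right in both libraries.

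The order of levels was led by Aldoa, the aldolase that splits the hexose bisphosphate, at 780 and 732 TPM (756 ± 34.4, SD, n = 2 technical libraries). Ldha, the lactate dehydrogenase subunit that favours pyruvate reduction, followed at 588 and 576 TPM (582 ± 8.76), and Pkm, pyruvate kinase, was at 594 and 555 TPM (575 ± 27.7). Ldha and Pkm changed places between the libraries and could not be ordered. Eno1, enolase, was at 417 and 376 TPM (396 ± 29.1), and Gpi1, glucose-6-phosphate isomerase, was at 344 and 329 TPM (337 ± 10.03). Below them came Gapdh at 162 and 182 TPM (172 ± 14.4). Among the 36 pairs of neighbours in this order, 23 stood in the same order in both libraries, and 9 had deposited interval bounds that did not overlap in either library. The bounds belong to the posterior mean TPM, a separate deposited estimate, and measure its uncertainty within a library only. The pair of Eno2 and Slc16a1 was among those 9, although its order by TPM differed between the libraries.

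Both glucose transporters among the members were detected. Slc2a3, the high-affinity glucose transporter GLUT3, was at 52.8 and 47.0 TPM, and Slc2a1, the widely expressed transporter GLUT1, was at 28.0 and 26.1 TPM. Slc2a3 thus made up 64.8% ± 0.75 of their summed TPM, and its level was 1.84 ± 0.061 times that of Slc2a1. With 7 further listed genes of the Slc2a family counted, Slc2a3 held 55.9%. Hexokinase, which traps glucose as glucose-6-phosphate, was nearly all Hk1. Hk1 was at 55.7 and 61.5 TPM, and Hk2, the inducible form, was at 2.88 and 2.68 TPM, so Hk1 made up 94.9% ± 0.67 of the summed TPM of the 3 hexokinase members. Hk2 rested on 69 and 63 counts.

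At the phosphofructokinase-1 step, the committed step of glycolysis, the platelet-type subunit Pfkp was at 110 and 102 TPM, the liver-type Pfkl at 44.0 and 45.4 TPM and the muscle-type Pfkm at 4.18 and 5.83 TPM. Pfkp was therefore 68.0% ± 2.20 of the step's summed TPM, and the order was the same in both libraries. The bifunctional enzymes Pfkfb3 and Pfkfb4, which set the level of the allosteric activator of phosphofructokinase-1, were much lower. Pfkfb3 was at 12.2 and 11.2 TPM. Pfkfb4 was at 3.27 and 6.30 TPM, which placed the Pfkfb3 share at 78.9% in technical replicate 1 and 63.9% in technical replicate 2, the widest gap among the leading isozymes.

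In lower glycolysis the levels were uneven from step to step. Aldoa was 99.2% ± 0.088 of the aldolase TPM, and the brain-type Aldoc was at 7.13 and 5.76 TPM. Tpi1, which interconverts the triose phosphates, was at 57.8 and 51.4 TPM, so that Aldoa was 13.9 ± 0.52 times its level. Gapdh, which oxidises glyceraldehyde-3-phosphate, was exceeded 4.42 ± 0.57 times by Aldoa. Pgk1, the first ATP-forming enzyme of the pathway, was at 102 and 107 TPM, and Pgam1, phosphoglycerate mutase, was at 39.0 and 46.9 TPM. Of the enolases, Eno1 made up 93.0% ± 0.47, while the muscle-type Eno3 was at 20.4 and 22.6 TPM and the neuronal Eno2 at 9.52 and 7.22 TPM. The values for Gapdh, Pgk1, Pgam1 and Eno1 depend on how reads shared with other loci were assigned, as described below.

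**Figure D2:**
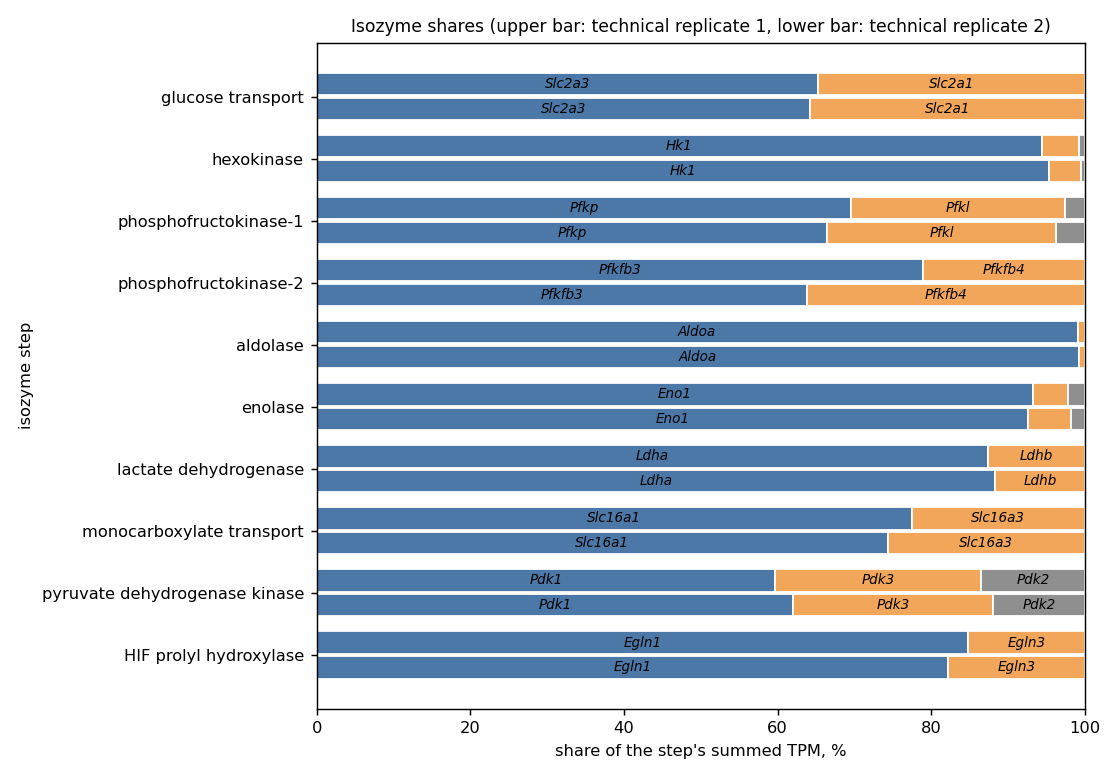
Share of the summed TPM of each step held by each isozyme (percent), for the 10 steps with more than 1 member isozyme, in technical replicate 1 (upper bars) and technical replicate 2 (lower bars), from the highest isozyme (blue) to the lowest (orange or grey). The narrow unlabelled segments are Hk2 and Hk3, Pfkm, Aldoc, and Eno3 and Eno2. In each of the 10 steps the same isozyme holds more than 50% in both libraries, and the Pfkfb3 share (78.9% and 63.9%) moves most between them.

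Pkm is a case where the isoform matters more than the gene. Its transcripts carry either of 2 mutually exclusive exons, which give pyruvate kinase M1, the constitutively active form of muscle and brain, or M2, the allosterically regulated form of proliferating cells. Both exons are coding and lie on the plus strand of chromosome 9 in mm10, and each is exon 9 of its annotated transcript. The M1 exon of Pkm-202 is chr9:59675029-59675195 and the M2 exon of Pkm-201 is chr9:59675568-59675734. They are shown because they set the M1 and M2 forms apart: both are 167 bases long, 64 positions differ and 61.7% are identical. Capitals mark the bases that differ.
Pkm M1 exon: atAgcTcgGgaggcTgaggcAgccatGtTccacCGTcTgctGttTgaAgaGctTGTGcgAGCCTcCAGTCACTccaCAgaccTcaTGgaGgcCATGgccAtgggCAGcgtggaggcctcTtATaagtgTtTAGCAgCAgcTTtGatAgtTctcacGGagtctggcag
Pkm M2 exon: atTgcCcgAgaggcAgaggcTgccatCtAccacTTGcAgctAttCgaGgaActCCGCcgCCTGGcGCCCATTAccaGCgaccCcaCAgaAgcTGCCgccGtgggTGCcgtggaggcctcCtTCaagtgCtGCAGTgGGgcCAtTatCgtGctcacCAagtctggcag

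The M2 exon predominated. Transcripts with it were at 462 and 440 TPM, from 13677.9 and 11498.6 estimated counts, all on Pkm-201. Transcripts with the M1 exon were at 41.0 and 37.8 TPM, from 942 and 724 counts, mostly on Pkm-202 at 36.5 and 30.6 TPM. Of the TPM on transcripts that hold either exon, M2 was 91.9% and 92.1% (92.0% ± 0.17) and M1 8.14% and 7.91%. A further 15.4% and 14.01% of the Pkm TPM lay on transcripts with neither exon, mainly Pkm-211, an annotated fragment of 582 nt at 84.5 and 69.8 TPM. The 2 libraries therefore differed little in the split between the exons.

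Pyruvate reduction was led by Ldha, at 87.8% ± 0.63 of the summed TPM of the lactate dehydrogenase subunits. Ldhb, the heart-type subunit, was at 84.8 and 76.4 TPM, so that Ldha was 7.24 ± 0.43 times as high. HIF-1 and the MYC family of factors bind short E-box-like elements with the shared core ACGTG, so promoters of the members were searched for ACGTG on both strands (CACGT on the strand shown; the palindrome CACGTG holds both and counts as 2 overlapping positions). The windows were RefSeq promoters of GRCm38.p6, from 250 bases before to 50 after each start. Ldha, Ldhb and Pgk1 are shown as the lactate dehydrogenase pair and a textbook HIF-1 target, over the 250 bases before the start, 5′ to 3′ on the gene's strand, with matches in capitals.
Ldha promoter, chr7:46845554-46845803, plus strand: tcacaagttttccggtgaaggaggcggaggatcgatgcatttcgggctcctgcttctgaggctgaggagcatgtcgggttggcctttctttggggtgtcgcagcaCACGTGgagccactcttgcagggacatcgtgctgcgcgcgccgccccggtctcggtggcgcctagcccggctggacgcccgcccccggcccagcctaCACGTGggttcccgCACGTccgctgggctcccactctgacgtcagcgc
Ldhb promoter, chr6:142507958-142508207, minus strand: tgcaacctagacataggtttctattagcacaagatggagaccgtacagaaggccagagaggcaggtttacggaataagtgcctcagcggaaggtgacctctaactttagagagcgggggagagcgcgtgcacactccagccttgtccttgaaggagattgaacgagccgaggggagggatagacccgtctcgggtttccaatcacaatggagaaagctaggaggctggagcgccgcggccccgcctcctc
Pgk1 promoter, chrX:106186850-106187099, plus strand: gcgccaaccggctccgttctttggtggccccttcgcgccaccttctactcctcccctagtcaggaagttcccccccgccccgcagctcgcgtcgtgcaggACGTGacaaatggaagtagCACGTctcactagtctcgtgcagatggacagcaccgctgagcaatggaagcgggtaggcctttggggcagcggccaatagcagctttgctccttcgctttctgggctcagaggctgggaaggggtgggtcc

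The Ldha window shown held 5 positions, which form 2 copies of the palindrome and 1 single match, the Pgk1 window held 2 and the Ldhb window held 0. A second RefSeq promoter of Ldha, farther downstream, also held 0. The RefSeq start used for Ldha lies 35 nt upstream of the start of Ldha-202, its leading transcript. Across the 36 members with a promoter entry, 21 had the core in at least 1 promoter, where the share was 21.8% of all genes with an entry and 30.0% of the detected protein-coding genes. Counted by promoter, 24 of their 51 promoters (47.1%) held it. The share by promoter was 19.6% over all 32851 promoters and 26.1% over the 10416 promoters of detected protein-coding genes. These counts and those that follow are over the full 300 bases. Slc16a1, Hif1a and 1 Pfkm promoter held 3 positions each, whereas the 3 Eno1 promoters and the promoters of Pfkp, Gpi1 and Pdha1 held 0. Before the start alone, Hif1a held 3, and Slc16a1 and that Pfkm promoter held 2 each. A match is a run of letters only, and no binding was measured here. Related runs that differ in a base, such as the GCGTG in the Ldhb window shown, were not searched.

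Lactate leaves cells through the monocarboxylate transporters, and both members of that step were low. Slc16a1, which encodes MCT1, was at 7.37 and 7.38 TPM, and Slc16a3, which encodes the exporter MCT4, was at 2.14 and 2.55 TPM from 52 and 45 counts. Their summed level was 9.51 and 9.93 TPM, against 673 and 652 TPM for lactate dehydrogenase. Slc16a1 made up 75.9% ± 2.25 of the pair.

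The mitochondrial branch was well represented. Mpc1 and Mpc2, the obligate partners of the pyruvate carrier, were at 132 and 122 TPM and at 57.1 and 62.2 TPM, a ratio of 2.15 ± 0.25. Within the pyruvate dehydrogenase complex, Pdha1 and Pdhb, the subunits of its first enzyme, were near each other at 123 ± 4.32 and 108 ± 1.71 TPM. Dlat, the acetyltransferase core, was at 15.2 and 15.4 TPM, so that Pdha1 was 8.01 ± 0.36 times and Pdhb 7.04 ± 0.040 times its level. Of the kinases that inhibit the complex, Pdk1 was at 26.9 and 35.3 TPM, Pdk3 at 12.1 and 14.8 TPM and Pdk2 at 6.09 and 6.80 TPM. Pdk1 made up 60.9% ± 1.68 of the 3, and Pdk4, which is no member, was at 0 and 0.08 TPM.

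In the oxygen-sensing axis, Hif1a was at 56.9 and 62.3 TPM (59.6 ± 3.78). The member genes that act against it were lower. Vhl, the substrate-binding subunit of the ubiquitin ligase, was at 9.13 and 10.3 TPM, and the prolyl hydroxylases Egln1 and Egln3 were at 9.24 and 7.91 TPM and at 1.66 and 1.71 TPM. Egln1 made up 83.5% ± 1.80 of the member pair, but Egln2, another prolyl hydroxylase that is no member, was at 10.5 and 13.3 TPM. With Egln2 counted, Egln1 held 38.8% of the step. Because HIF-1α is controlled mainly through protein stability, these RNA levels give no measure of its activity.

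In each of the 10 steps with several member isozymes, the same isozyme held more than 50% of the summed TPM in both libraries. These shares take in all transcripts of a gene, protein coding or not. The count fell to 8 when the listed paralogs that are no members were added to the step. The steps lost were phosphofructokinase-2, where Pfkfb3 held 49.3%, and prolyl hydroxylase. It was 6 in the smaller deposited gene table, whose whole-number counts were divided by the same effective lengths. There the Eno1 share was 45.5%, the Egln1 share 48.6% and the Pfkfb3 share 63.4% on average, with Eno3, Egln3 and Pfkfb4 above them in 1 library each. Pdk1 held 39.1%, and Pdk3 was above it in both libraries.

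For some members most of the TPM lay on transcripts that are not annotated as protein coding. In both libraries, 23 members had 1 and the same transcript with more than 50% of their TPM, for example Eno1-202 at 91.0% and 88.5% and Ldha-202 at 89.0% and 90.4%. For Slc2a1 that transcript was Slc2a1-204, annotated as a nonsense-mediated decay target, at 65.4% and 59.6%, and for Hk2 it was the processed transcript Hk2-202 at 71.9% and 67.5%. By counts the protein-coding Hk2-201 led Hk2 instead, with 79.7% and 82.8%, and Hk2-202 rested on 14.03 and 10.8 counts. Among the detected members, the protein-coding transcripts together held under 50% of the TPM in both libraries in 4. They averaged 26.5% for Pdk1, 30.3% for Hk2, 31.6% for Gpi1 and 37.5% for Slc2a1. Gpi1 also changed its leading transcript between the measures, because its Gpi1-207, a nonsense-mediated decay target, led by TPM at 31.0% and 29.7%, while the full-length Gpi1-201 led by counts at 51.9% and 50.5%. The highest transcript by TPM differed between the libraries for 5 members. For Eno3 it was Eno3-206 at 78.9% in technical replicate 1, and that transcript was at 0% in technical replicate 2.

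Several members share long stretches of sequence with other genes, mostly processed pseudogenes, and their counts depend on how shared reads were assigned. The protein-coding transcript with the most estimated counts for each member was cut into 50-base words, and each word was looked for in every other annotated gene. All words were unique to the gene for 18 members, and under 90% for 12. Gapdh had the fewest at 9.57%, with 161 copies of at least 90% identity over 200 nt or more, 153 of them annotated as pseudogenes. Eno1 followed at 27.8%, Pgk1 at 32.0%, Mpc1 at 55.8% and Pgam1 at 58.5%.

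Some of those copies carried sizeable estimated levels. Eno1b, a protein-coding gene 99.5% identical to Eno1 over 1736 nt, was listed at 201.2 and 210.7 TPM, and the processed pseudogene Gm4735 at 38.0 and 23.8 TPM. Mpc1-ps, 99.7% identical to Mpc1 over 330 nt, was at 49.8 and 43.0 TPM, and Gm5537, 100% identical to Pgk1 over 1252 nt, was at 26.3 and 19.9 TPM. Gm4735 and Gm5537 were named after their values were seen. Summed with their copies, Eno1 was at 641 ± 32.1 TPM, Gapdh at 253 ± 9.24, Mpc1 at 174 ± 11.8 and Pgk1 at 129 ± 1.52. The levels of these 4 genes, and the share of Eno1 among the enolases, are therefore uncertain. With Eno1b and the other paralog counted as separate enolases, Eno1 held 62.6% of the step.

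The smaller gene table, which holds whole-number counts, gave far fewer counts to the same genes. For the 8661 genes with at least 100 counts in the larger table, the smaller count was 39.3% and 40.2% of the larger on median, and for the members it was 31.1% and 30.6%. The 12 members with under 90% unique words had medians of 11.2% and 12.8%, and the other 25 had 45.2% and 44.1%. Gapdh kept 48 and 34 counts, which is 2.91% and 2.18%, and Pgk1 kept 22 and 22, or 0.975% and 1.06%. Pgam1 was at 0 and 3 counts. Across the 37 members the share of unique words and the share of counts kept had a Spearman rho of 0.563 and 0.559, over genes that share libraries and are not independent. A low share was not limited to members with shared words, since Egln1, with all its words unique, kept 4.18% and 7.14%, and Vhl, likewise unique, kept 14.5% and 13.5%.

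**Figure D3:**
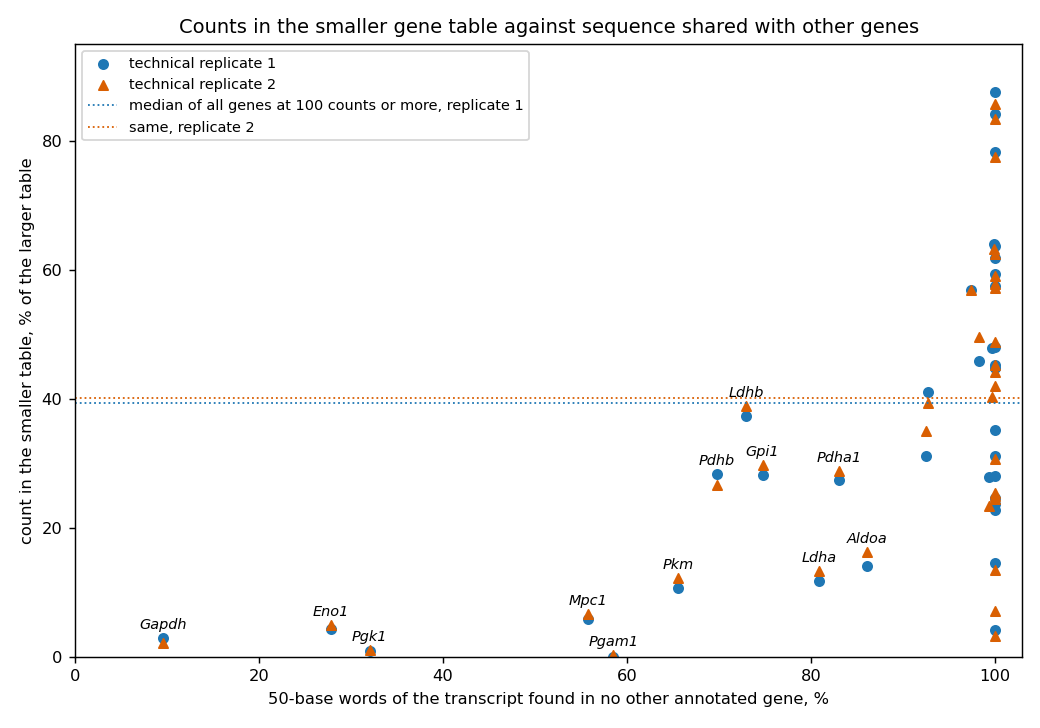
Count in the smaller gene table as a percent of the count in the larger table (vertical axis) against the percent of 50-base words of the member's transcript found in no other annotated gene (horizontal axis), for the 37 members in both libraries. The 5 members under 60% unique words all keep 6.68% or less, while members at 100% range from 4.18% to 87.5% in technical replicate 1.

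The only comparison of samples that the series allows is between the technical libraries. A two-sided exact binomial test on normalised counts, with Benjamini-Hochberg adjustment over all 17334 genes tested, called 9 of the 37 members at an adjusted p of 0.05. The background in that comparison was 19.2% of genes, with 9.42% higher and 9.78% lower in technical replicate 2. Of the members 4 were higher and 5 lower. Pdk1 had 957 and 1166 counts, a log2 ratio of technical replicate 2 over 1 of 0.46, with adjusted p = 5.33e-11 by the exact binomial test. Eno1 had 9765.2 and 7732.9 counts, a log2 ratio of -0.16, with adjusted p = 6.68e-11 by the same exact test. Slc2a3, with a log2 ratio of -0.31, Hif1a with 0.19, Pgam1 with 0.24 and Pfkfb4 with 0.54 were also called. Pkm, Aldoa and Pfkp were called at log2 ratios of -0.085, -0.084 and -0.12.

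These calls measure counting error alone, and the libraries differed by more than that. The index of dispersion, which is 1 where counting error is all there is, was 4.98 over all genes and 8.05 over the members. It is a mean of per-gene values, whose medians were close, at 1.70 over all genes and 1.84 over the members. The reference of 1 holds for the mean and not for these medians. When edgeR's exact test was given a common dispersion estimated from the 2 libraries themselves, 312 genes (1.8%) and 0 members were called, with 1690 genes and 1 member at an unadjusted p under 0.05. The median coefficient of variation was 7.01% for the members and 10.2% for all genes in the same range of mean counts. That range ran from 7 to 14037.9, and genes were not matched to members by count within it. The medians therefore do not compare genes of like depth. 

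**Figure D4:**
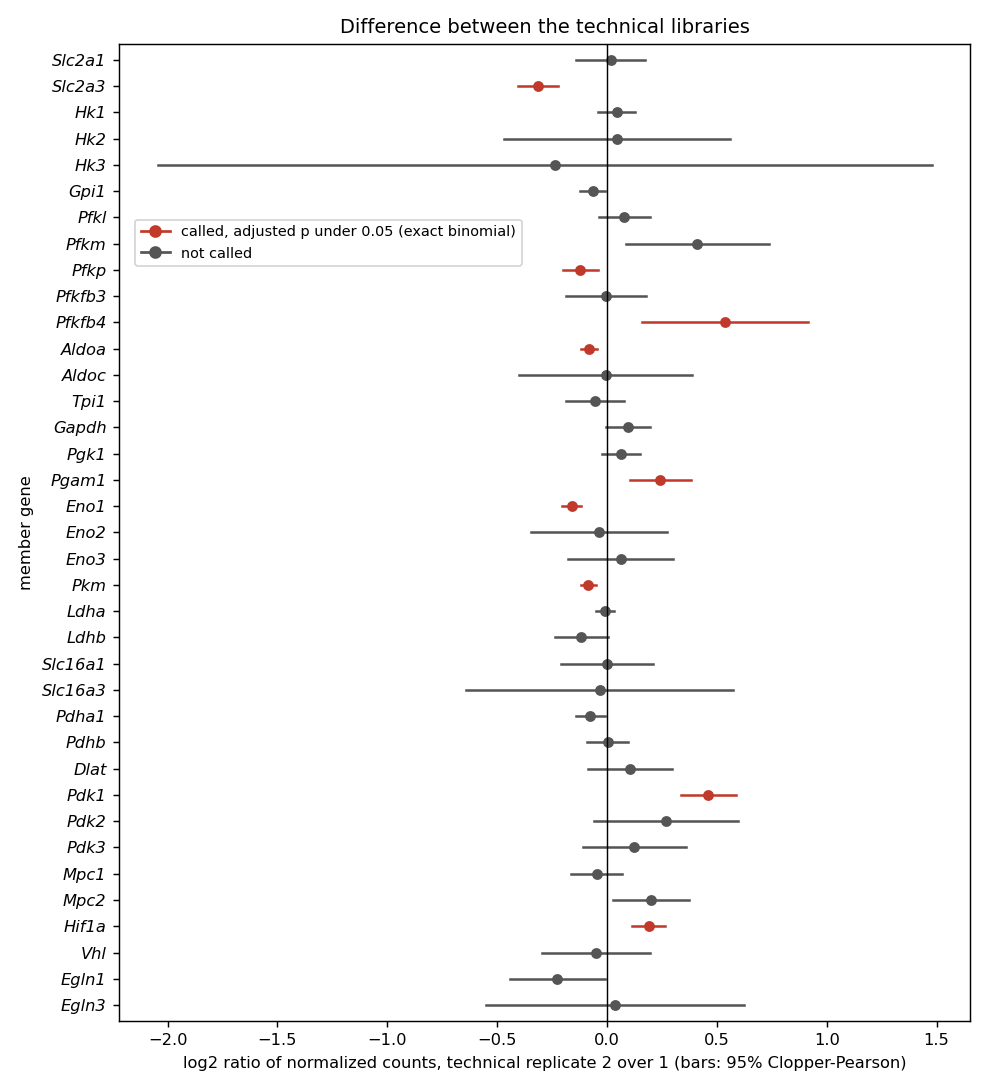
Log2 ratio of normalised counts, technical replicate 2 over 1, for each member, with 95% Clopper-Pearson intervals that cover counting error only. The 9 called members are in red, from Pfkfb4 at 0.54 to Slc2a3 at -0.31, and Hk3, with 8 and 6 counts, has the widest interval.

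Of 99 other genes of these and adjoining pathways, 71 were detected, beside 46.7% of protein-coding genes, with 7 called higher and 13 lower in technical replicate 2, beside 9.42% and 9.78% of all genes tested. Most listed paralogs of the members that were not among the 37 were low or at 0. The lactate dehydrogenase paralogs Ldhc and Ldhal6b, the lactate transporter paralogs Slc16a7 and Slc16a8, and the hexokinase-related gene Hkdc1 were not detected. Of 7 further listed genes of the Slc2a family 3 were detected, namely Slc2a9 at 6.71, Slc2a6 at 2.80 and Slc2a8 at 2.46 TPM. Slc2a2, Slc2a4, Slc2a10 and Slc2a12 were not. The other bifunctional phosphofructokinase-2 genes, Pfkfb1 and Pfkfb2, were at 5.30 and 1.98 TPM, and the muscle-type mutase Pgam2 was at 1.22 and 2.88 TPM. Gapdhs, Pgk2, Pklr and Eno4 were not detected. Bpgm, which makes bisphosphoglycerate from a glycolytic intermediate, was at 21.6 TPM and Tigar, a phosphatase that lowers the activator of phosphofructokinase-1, at 6.59 and 4.61 TPM.

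All 12 of 12 tricarboxylic acid cycle genes passed the threshold, with a median of 87.2 TPM. Mdh2, mitochondrial malate dehydrogenase, was highest at 452 TPM, followed by the dehydrogenase subunits Idh3b and Ogdh at 107 and 106 TPM. All 7 of 7 pentose phosphate genes passed it as well, with a median of 34.2 TPM. There Taldo1, transaldolase, stood at 200.2 TPM, Tkt, transketolase, at 151 TPM and Pgls, the lactonase, at 47.0 TPM. Of 9 genes of the NADH shuttles, which pass reducing equivalents into mitochondria, 8 were detected, led by Mdh1 at 318, Slc25a11 at 67.2 and Slc25a12 at 58.3 TPM, and Gpd1 was not. Gluconeogenesis was represented by Pck2 at 25.8 and G6pc3 at 25.6 TPM, while Pck1, G6pc, Fbp1 and Fbp2 were not detected.

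Of 20 genes known to be induced by hypoxia, 4 of which are members, 16 were detected, and the list median was 11.7 TPM. Bnip3l, a mitophagy receptor, was highest at 333 TPM, followed by Higd1a at 87.3 and the repressor gene Bhlhe40 at 70.7 TPM. Vegfa, which encodes an angiogenic growth factor, was at 0 TPM in both libraries, and Car9, Adm and P4ha2 were also not detected. Of 8 HIF subunits and degradation partners 7 were detected, and the ligase components Elob, Rbx1 and Eloc stood at 508, 276 and 170 TPM. Hif3a was not detected.

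Of 8 partners of the pyruvate dehydrogenase step and of monocarboxylate transport 6 were detected. Bsg, the chaperone of the lactate transporters, was at 90.2 TPM, Dld, the third enzyme of the complex, at 62.6 TPM and Pdp2, a phosphatase that reverses the kinases, at 13.1 and 12.9 TPM. The testis form Pdha2 and Pcx, pyruvate carboxylase, were below the threshold, Pcx at 0.98 TPM in both libraries. All 7 regulators of glycolysis were detected, with Trp53, which encodes p53, at 230 TPM, Myc at 86.0 TPM and Prkaa1, a catalytic subunit of AMP-activated kinase, at 13.5 TPM. None of these levels could be set against another state of the cells, because no other state was measured here.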

How the data were processed

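PolyA plus RNA was sequenced from 1 biological replicate as 2 technical libraries. Estimated counts and TPM per gene and transcript were made by the authors on mm10 with GENCODE M21 and deposited per library. The deposited transcript table also gives each transcript's percent of its gene's TPM. The bounds on TPM, used here as a signal range, were deposited by the authors, per the file headers, and belong to the posterior mean TPM. Whole-number counts in the smaller gene table were made by the authors from genome alignments with GENCODE M4, per the text deposited with each library, and cover 3581589 and 3271045 counts. The aligner, quantifier and strand setting are not given in the sources used here.

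Entries that name no gene held 0.174% and 0.158% of the counts and were left out of library sizes and tests. Estimated counts were rounded for tests. Genes with at least 10 counts summed were tested with a two-sided exact binomial test (scipy 1.17.1) on TMM-scaled sizes (edgeR 4.0.16), with Benjamini-Hochberg adjustment. One library a side leaves no residual degrees of freedom for a quasi-likelihood fit, so these p-values compare 2 libraries, not conditions, and cover counting error only. The test was checked on data simulated with counting error only. That check does not cover the wider spread seen between these libraries. Copies were found with BLAST 2.17.0. Alternatives used DESeq2 1.42.0 size factors, total counts, edgeR's exact test with a common dispersion, other thresholds, the smaller table and each library alone. All members were named, with the 3 highest genes of each other list and its undetected genes where there were at most 5. Some genes of these lists are not reported here. The members and lists were chosen with earlier results of these data known.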

Additional observations from a re-analysis of the deposited data

How the results depend on the processing

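The number of members detected stayed between 31 and 36 under thresholds of 0.5 and 5 TPM, the posterior mean TPM and each library alone. In the smaller gene table it was 35, at a threshold of 1 CPM, a count scaled for library size only. These were not all the same genes. Hk3 passed there, with 7 and 5 counts, whereas Hk2, with 17 and 2 counts, and Pgam1, with 0 and 3, did not. The other pathway genes detected numbered 59 to 75 under the same alternatives apart from the smaller table, which was not run for them. The count of steps with 1 leading isozyme was 10 in each library alone, by posterior mean TPM and by counts without length scaling. It was also 10 with copies added (copies found by sequence were added after the data were seen). With the listed paralogs counted it was 8, and in the smaller gene table it was 6. A leading transcript was found for 23 members, for 29 by counts, and for 27 to 28 when either library was left out. Genes called between the technical libraries numbered 3374 with DESeq2 size factors, of which 11 were members, adding Gpi1 and Pdha1, and 3316 with total counts, of which 9 were members. From the smaller table's counts, 729 genes and 4 members (Hk2, Pdk1, Pfkfb4 and Pfkp) were called. With edgeR's common dispersion, which allows for spread beyond counting error, 312 genes and 0 members were called. That dispersion was estimated from the same 2 libraries and so takes in the difference under test, which lowers the number of calls. The cause of the other changes was not tested. No called log2 ratio between the libraries changed sign between TPM, at a pseudocount of 1 or 0.1, and normalised counts. Ratios were not recomputed from the smaller table. There Pkm had 1624 and 1565 counts and Aldoa 1911 and 1851, of 3581589 and 3271045 in all. Per total count, both were thus higher in technical replicate 2, opposite to their called direction. Of the ratios not called, those of Slc2a1, Hk2, Slc16a3 and Vhl took the opposite sign with normalised counts in place of TPM. Of 80 isozyme shares recomputed, 28 moved by more than the spread between libraries, most of them in the smaller table and without length scaling. No paired analysis was possible because the series holds 1 group with 1 biological replicate. Depth limits Hk3, Hk2, Slc16a3 and Egln3, each with under 70 counts a library.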
